A study of Homo sapiens with 8 samples.

Results

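Contractile and myofibroblast genes encode the smooth-muscle type of actin machinery that fibroblasts can switch on. The 10 genes described here were taken by symbol from the 27945 genes counted: ACTA2, ACTG2, TAGLN, CNN1, MYL9, MYLK, TPM1, TPM2, LMOD1 and MYOCD. Nascent transcription was measured by fastGRO-seq in IMR90 cells, primary human lung fibroblasts, which are grown as a line and are normally able to take on contractile features. In this assay nuclei are isolated and their engaged polymerases run on in the presence of 4-thio-UTP. The labeled RNA is then captured and sequenced, so the counts reflect transcription in progress and not the mRNA pool.

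There were 4 groups of 2 libraries. The control cells are labelled WT and control. The other 3 groups are labelled senescent and shcontrol, shMETTL3 or shMETTL14, and are called senescent shControl, shMETTL3 and shMETTL14 cells. Senescence was driven by ER:RAS, an oncogenic H-RAS fused to the estrogen receptor, introduced by retrovirus and switched on with 4-hydroxytamoxifen (4-OHT); the methods give 100 nM and harvest on day 6. Each knockdown rests on 1 shRNA, so an effect of the targeted gene and another effect of its hairpin cannot be told apart. No shRNA and no 4-OHT dose is named for the control cells. Where senescent shControl cells are compared with control cells, several differences therefore cannot be told apart. They are senescence, the oncogenic RAS that drives it, exposure to 4-OHT and an shRNA vector. The labels number the libraries as replicates, and the study describes its fastGRO-seq experiments as biologically independent. The p-values rest on the spread between these libraries.

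In smooth muscle and in activated fibroblasts, thick filaments of myosin pull on thin filaments of actin. The pull is switched on when myosin light chain kinase phosphorylates the regulatory light chain, and the thin filament is built and stabilized by actin-binding proteins. Serum response factor (SRF) binds a short DNA element, the CArG box, at many of these genes, together with its partners myocardin and the myocardin-related factors MKL1 and MKL2, which enter the nucleus when actin is polymerized. METTL3 and METTL14 form the core of the complex that writes the m6A mark on RNA.

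Promoter sequences at annotated starts of 3 members are shown because their CArG boxes are the letters these genes are best known for. The RefSeq promoter table (build GRCh38.p14) held 9 windows for 7 of the 10 members, each running from 250 bases before to 50 bases after an annotated start. It held none for TAGLN, MYL9 or MYOCD. Both strands were searched for the CArG box, which is a pair of C, then 6 bases that are each A or T, then a pair of G. Capitals mark the CArG boxes, and in ACTA2 the boxes with 1 G or C among the 6 central bases.
ACTG2, chr2:73892758-73893057, plus strand: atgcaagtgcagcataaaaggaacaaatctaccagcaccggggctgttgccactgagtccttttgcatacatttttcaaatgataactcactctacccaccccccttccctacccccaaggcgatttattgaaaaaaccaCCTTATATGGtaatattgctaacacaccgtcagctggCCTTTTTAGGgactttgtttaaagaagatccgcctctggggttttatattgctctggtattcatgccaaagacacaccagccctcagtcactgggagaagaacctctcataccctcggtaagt
ACTA2, chr10:88952724-88953023, minus strand: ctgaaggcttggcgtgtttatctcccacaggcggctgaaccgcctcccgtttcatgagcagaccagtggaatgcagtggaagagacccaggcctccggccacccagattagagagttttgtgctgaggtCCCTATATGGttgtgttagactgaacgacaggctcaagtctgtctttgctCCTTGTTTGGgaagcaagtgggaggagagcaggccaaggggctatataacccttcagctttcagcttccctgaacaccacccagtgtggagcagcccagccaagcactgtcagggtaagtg
MYLK, chr3:123620499-123620798, minus strand: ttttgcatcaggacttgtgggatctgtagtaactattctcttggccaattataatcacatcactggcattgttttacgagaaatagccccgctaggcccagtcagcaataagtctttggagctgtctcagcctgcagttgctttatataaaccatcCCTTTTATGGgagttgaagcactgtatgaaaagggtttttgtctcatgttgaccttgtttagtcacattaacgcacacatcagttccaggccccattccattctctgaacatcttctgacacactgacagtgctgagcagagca

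ACTG2 held 2 CArG boxes, which began 110 and 73 bases before the start, and the MYLK window held 1, which began 94 bases before its start. That start lies inside the gene, 264 kb from the 5′ end of the 274 kb gene in the same build, near its 3′ end, where the short transcript known as telokin begins, which does not encode the kinase domain. Upstream starts of the gene were not examined here. Of all 35116 promoter windows of this length, 1.29% held such a box. The ACTA2 window shown, whose start lies 38.6 kb inside the gene, held no CArG box in the strict form and 2 with 1 central G or C, which began 121 and 71 bases before the start, a form found in 6.94% of all windows. The other ACTA2 window, at an upstream start, held neither form. No CArG box was found in the windows of CNN1, TPM1, TPM2 and LMOD1, which says only that these letters are not in these windows. These matches are a description of the letters and were not tested for binding.

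The values are raw read counts that the authors made over the whole span of each gene, with its introns, from reads aligned to hg19. Library totals ran from 14897360 to 20306299, but ribosomal RNA genes (21 rows) took 86.2% to 92.5% of a library, which left 1513930 to 2048475 counts per library for all other genes. All 10 members passed the filter on low counts with 12844 genes in all, CNN1 only through the control libraries, and LMOD1 and MYOCD only through the control and senescent shControl libraries. Since these 3 genes were tested because they are high in those groups, each count of calls is also given over the members that reach the filter in both groups compared. The targeted genes were examined as a check of the labels. METTL3 fell from 77 and 47 counts in senescent shControl libraries to 16 and 19 in shMETTL3 libraries (log2 fold change -2.04, SE 0.31, adjusted p = 1.79e-05, edgeR's quasi-likelihood test). METTL14 went from 24 and 28 to 18 and 14 counts in shMETTL14 libraries (log2 fold change -0.86, SE 0.35, adjusted p = 0.0763, edgeR), which did not reach the threshold. These counts are of transcription in progress, so they cannot show how far a knockdown lowered the mRNA or the protein. For its knockdowns the paper refers to a western blot of the proteins. The labelled cell type was checked against its markers: all 10 fibroblast markers had at least 10 counts in a library, while of the smooth muscle markers KCNMB1 was at 0 everywhere, and of the striated muscle markers MYOD1, MYOG, MYH7, ACTA1 and ACTC1 were at 0. At least 10 counts in a library were reached by 6 of 8 smooth muscle, 1 of 12 striated muscle, 3 of 7 epithelial, 2 of 6 endothelial and 1 of 7 immune markers, and CD3E and HLA-DRA were among the immune markers at 0.

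The spike-in was not used here, so every change given here is relative to the rest of its library. A normalized count is the raw count divided by the size of its library relative to the mean of the 8 libraries, with sizes scaled by TMM, a method that assumes most genes do not change. Log2 fold changes, their standard errors (SE) and p-values come from edgeR's quasi-likelihood test in 1 fit of all 8 libraries, with p adjusted by the Benjamini-Hochberg method over the 12844 genes, and a gene is called where the adjusted p is below 0.05.

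The members covered a wide range of nascent transcription. Per kilobase of gene body, the highest in control cells was TPM2 (chr9:35681990-35690053, hg19, minus strand), a tropomyosin that winds along the actin filament, at 118 ± 10.6 normalized counts (SD, n = 2). TAGLN (chr11:117070010-117078181, plus strand), the actin-binding protein transgelin, stood at 50.6 ± 0.449 per kilobase. MYL9 (chr20:35169887-35178226, plus strand), the regulatory light chain of smooth-muscle myosin, stood at 49.4 ± 5.5, which did not differ from TAGLN beyond its spread. TPM1 (chr15:63334838-63364113, plus strand), the other tropomyosin of the list, followed at 22.1 ± 1.24 and MYLK (chr3:123331143-123603149, minus strand), the light chain kinase, at 14.3 ± 0.580.

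The lower part of the range held the smooth-muscle actins and the genes most restricted to smooth muscle. ACTG2 (chr2:74120093-74146780, plus strand), the enteric smooth-muscle actin, had 7.55 ± 0.113 normalized counts per kilobase in control cells. ACTA2 (chr10:90694831-90751154, minus strand), the alpha smooth-muscle actin used as the usual mark of a myofibroblast, had 4.32 ± 0.412. CNN1 (chr19:11649532-11661138, plus strand), calponin, had 2.31 ± 0.240 and LMOD1 (chr1:201865584-201915716, minus strand), leiomodin, which starts actin filaments, had 2.10 ± 0.434, so these neighbours did not differ beyond their spread. MYOCD (chr17:12569207-12672265, plus strand), myocardin itself, was the lowest at 0.341 ± 0.0282.

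**Figure D1:**
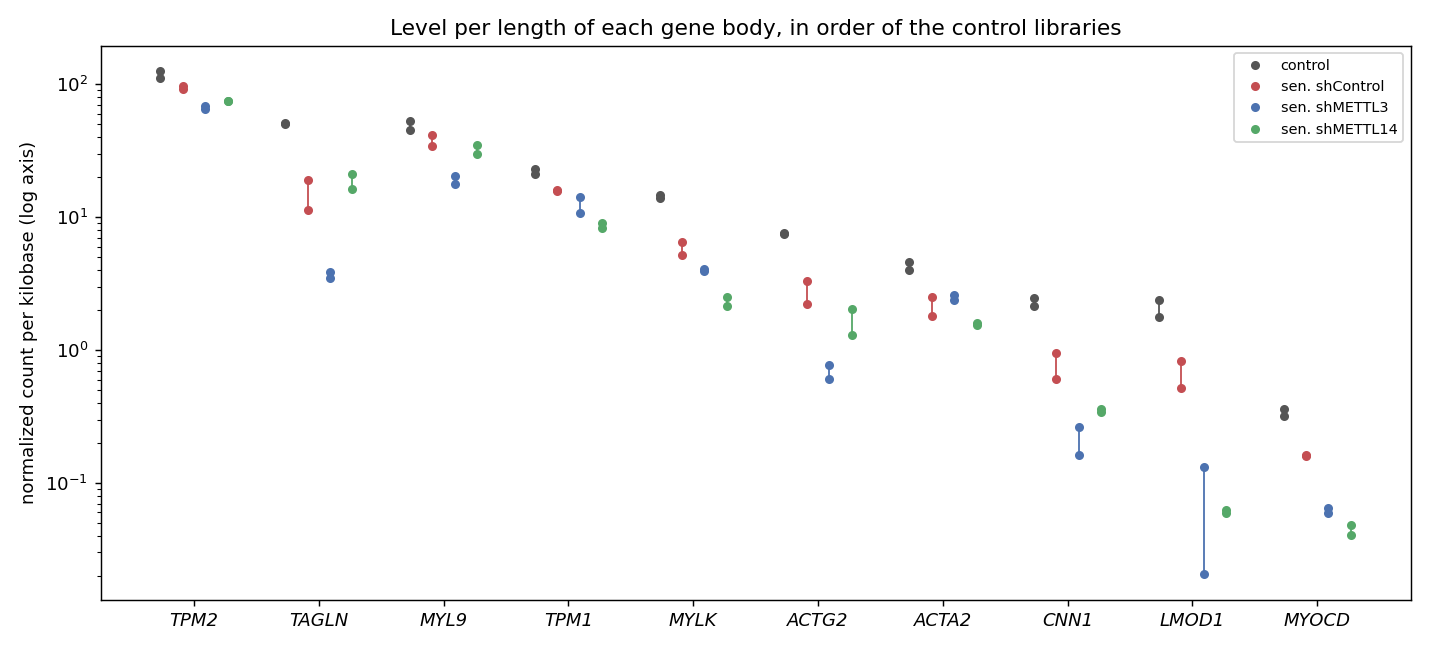
Normalized count per kilobase of gene body (log axis) of the 10 genes in order of their control level, with 1 point per library and a line joining the 2 libraries of a group. TPM2 is the highest and MYOCD the lowest in control cells, and for every gene both control points lie above all 6 senescent points.

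Gene bodies were counted whole, and the share of each that is exonic in any annotated transcript (GENCODE lifted to GRCh37, the same assembly as hg19) differed widely. It was 80.2% for TAGLN, 50.1% for TPM1 and 39.5% for TPM2, and 24.4% for CNN1. It was between 7.83% and 14.2% for the other 6, so that most of their counted span is intronic.

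In senescent shControl cells the contractile genes were transcribed less than in control cells. Of the 10 members 8 were called lower and 0 higher, where 13.3% of all genes tested were called lower and 13.3% higher. The median log2 fold change of the members was -1.18 and that of all genes -0.034. The 8 were ACTA2, ACTG2, TAGLN, CNN1, MYLK, TPM1, LMOD1 and MYOCD, and both senescent shControl libraries lay below both control libraries for 10 of the 10 members, as for 34.5% of all genes tested. Without CNN1, 7 of 9 were called lower. In this bulk measurement fewer cells that transcribe a gene and less transcription per cell cannot be told apart.

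Among the actins, ACTA2 had 256 and 298 raw counts in the control libraries and 86 and 127 in the senescent shControl libraries. ACTG2 had 230 and 229 against 50 and 79. For both genes every senescent shControl library lay below both control libraries. The log2 fold change was -1.0 for ACTA2 (SE 0.17, adjusted p = 4.67e-05, edgeR) and -1.45 for ACTG2 (SE 0.20, adjusted p = 3.08e-06, edgeR). The mean normalized count of ACTA2 went from 243 ± 23.2 to 122 ± 28.1 (SD, n = 2), and ACTG2 was left at 36.5% of its control level.

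Of the proteins that bind the thin filament, TAGLN, LMOD1 and CNN1 were left at 30.1% to 34.0% of the control level, with log2 fold changes that lay within each other's errors. The 470 and 472 counts of TAGLN in control cells became 79 and 140 in senescent shControl cells (log2 fold change -1.72, SE 0.18, adjusted p = 1.85e-08, edgeR). LMOD1 had 136 and 103 counts against 22 and 37 (log2 fold change -1.63, SE 0.29, adjusted p = 9.8e-05, edgeR). The groups did not overlap for either gene. CNN1 was read from few counts, 28 and 33 in control cells against 6 and 10, with a log2 fold change of -1.53 (SE 0.47, adjusted p = 0.0144, edgeR). That call was lost when any 1 of these 4 libraries was left out (adjusted p from 0.0537 to 0.19).

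The tropomyosins changed little by comparison. TPM1 had 759 and 713 counts in control cells and 400 and 411 in senescent shControl cells (log2 fold change -0.47, SE 0.14, adjusted p = 0.0123, edgeR), a call that was lost without control replicate 1 (-0.41, adjusted p = 0.124), without senescent shControl replicate 1 (-0.49, adjusted p = 0.0936) or without replicate 2 (-0.44, adjusted p = 0.119). TPM2 had 1146 and 1027 against 629 and 702 counts, a log2 fold change of -0.32 (SE 0.13, adjusted p = 0.0688, edgeR) that did not pass. Both senescent shControl libraries lay below both control libraries for each gene also after normalization.

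The motor side of the apparatus was split. MYLK, the longest member and the one with most counts, had 4506 and 4326 counts in control cells and 1191 and 1578 in senescent shControl cells. Its log2 fold change was -1.29 (SE 0.14, adjusted p = 5.17e-08, edgeR), which left 40.8% of the control level. MYL9, the protein that this kinase phosphorylates, had 502 and 436 against 244 and 310 counts, and its log2 fold change of -0.38 (SE 0.14, adjusted p = 0.0508, edgeR) did not pass. Both MYL9 and TPM2 were called lower in 7 of their 17 alternatives, among them the fit of only the 4 libraries compared (adjusted p = 0.0105 and 0.00952), the upper quartile scaling (0.0244 and 0.0314) and the length offset (0.0144 and 0.0201).

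MYOCD, the co-activator of SRF that drives these genes in smooth muscle, was barely transcribed. It had 42 and 38 counts in control cells and 14 and 15 in senescent shControl cells, with a log2 fold change of -1.07 (SE 0.37, adjusted p = 0.0326, edgeR). The call was lost without any 1 of these 4 libraries (adjusted p from 0.105 to 0.196), without shMETTL14 replicate 1 (0.0553) or replicate 2 (0.0503), and with DESeq2 (adjusted p = 0.209). The fall left 47.3% of a level that was already the lowest of the list.

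**Figure D2:**
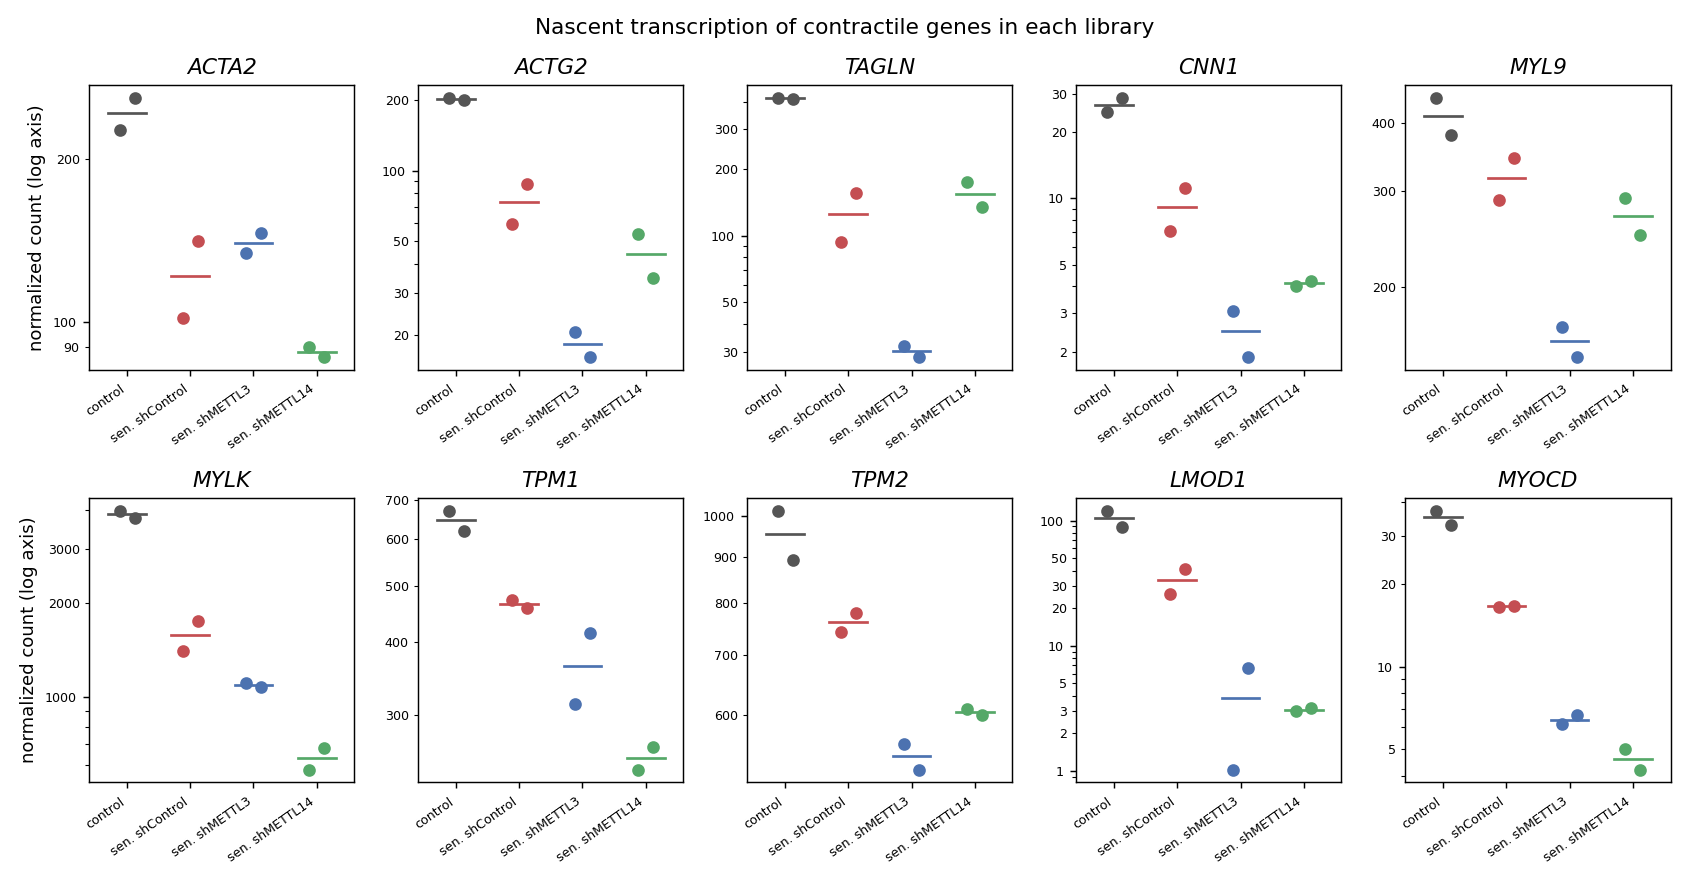
Normalized count of each gene (log axis, its own range in each panel) in the 8 libraries, with 1 point per library and a bar at the mean of the 2 libraries of each group. Both control libraries lie above all senescent libraries in every panel, the shMETTL3 points of ACTG2, TAGLN and MYL9 lie lowest in theirs, and the shMETTL14 points of ACTA2, MYLK and TPM1 lie lowest in theirs.

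Other values moved beside this fall. Of the 10 fibroblast markers 7 were also called lower and 1 higher in senescent shControl cells, with a median log2 fold change of -1.15, and their summed normalized counts were 30329 to 32421 in control and 21033 to 22610 in senescent shControl libraries. Of the 8 smooth muscle markers, the 3 called lower were the members ACTG2, LMOD1 and MYOCD and the 1 called higher was SMTN, so that no smooth muscle marker outside the list fell by the test. Their sums were 466 to 478 against 352 to 358. The 1 endothelial marker tested was called lower (-1.04, list sums of 102 to 116 against 60.3 to 63.4), the 1 immune marker tested higher (2.05, sums of 15.9 to 18.3 against 53.4 to 75.7), and 1 of 3 epithelial markers tested higher. Their part in the result was not tested. The senescent shControl libraries also differed from each other, since replicate 2 was above replicate 1 for 9 of the 10 members, by a median of 0.39 on the log2 scale, while over all genes 49.7% were higher in replicate 2. The sizes of the falls moved with the library left out. Without senescent shControl replicate 2 the log2 fold change was -1.24 for ACTA2 and -2.13 for TAGLN, and without replicate 1 it was -0.77 and -1.40. Member counts with 1 library left out are given further below, beside the shares of all genes. On the scale of library size alone the median of all genes in this comparison moved to -0.53, and 10 members were called lower, where 39% of all genes were lower and 5.85% higher.

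After METTL3 knockdown, transcription of most contractile genes was lower again than in senescent shControl cells. Of the 10 members 7 were called lower and 0 higher, where 11.2% of all genes tested were called lower and 12.2% higher, and the members' median log2 fold change was -1.18 against -0.034 for all genes. The 7 were ACTG2, TAGLN, MYL9, MYLK, TPM2, LMOD1 and MYOCD. Both shMETTL3 libraries lay below both shControl libraries for 9 of the 10, as for 30.6% of all genes tested. Over the 7 members that reach the filter in both groups, 5 were called lower. The calls of ACTG2, TAGLN and LMOD1 were kept in every fit that could test them. The 2 shMETTL3 libraries differed from each other more than those of the other groups did, with a chi-square per degree of freedom over all genes of 5.13 against 1.53 to 2.52.

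TAGLN went from 79 and 140 counts with shControl to 31 and 30 with shMETTL3 (log2 fold change -2.05, SE 0.25, adjusted p = 7.18e-07, edgeR). ACTG2 had 50 and 79 against 20 and 17 (log2 fold change -2.01, SE 0.29, adjusted p = 1.03e-05, edgeR). TAGLN was left at 7.29% and ACTG2 at 9.09% of the control level, and in both genes the groups did not overlap. The largest fitted fall was that of LMOD1, from 22 and 37 counts to 1 and 7, with a log2 fold change of -3.06 (SE 0.51, adjusted p = 6.14e-05, edgeR), in a gene that does not reach the filter with shMETTL3. Its size rests on which shMETTL3 library is read: the log2 fold change was -2.34 without replicate 1 and -4.90 without replicate 2.

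The 2 actins parted here. For ACTA2 the libraries held 86 and 127 counts with shControl and 131 and 154 with shMETTL3, and after normalization the groups overlapped. Its log2 fold change was 0.20 (SE 0.18, adjusted p = 0.445, edgeR), which did not pass and became -0.018 without senescent shControl replicate 1. ACTA2 thus stood at 57.7% of the control level with shMETTL3, next to 9.09% for ACTG2.

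MYL9 and MYLK were both lower. MYL9 went from 244 and 310 counts with shControl to 165 and 157 with shMETTL3 (log2 fold change -0.99, SE 0.16, adjusted p = 2.86e-05, edgeR), so this gene, which had not passed in senescence, was left at 38.6% of the control level. MYLK had 1191 and 1578 against 1077 and 1132 counts. These raw counts lie close together, and the log2 fold change of -0.54 (SE 0.14, adjusted p = 0.00659, edgeR) came after TMM scaling, by which the shMETTL3 libraries were 0.975 and 1.05 times the mean size and the shControl libraries 0.846 and 0.899 times. It was lost without senescent shControl replicate 2 (-0.38, adjusted p = 0.204).

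TPM2 was lower at 544 and 550 counts with shMETTL3 (log2 fold change -0.50, SE 0.13, adjusted p = 0.00762, edgeR), a call lost without senescent shControl replicate 2 (-0.47, adjusted p = 0.0936). TPM1 had 305 and 436 counts, and its log2 fold change of -0.35 (SE 0.14, adjusted p = 0.0784, edgeR) did not pass. MYOCD had 6 and 7 counts with shMETTL3 against 14 and 15 with shControl (log2 fold change -1.36, SE 0.50, adjusted p = 0.0476, edgeR), a call at the threshold that was lost in 14 of its 16 alternatives. CNN1 had 3 and 2 counts against 6 and 10. The ratio of its normalized levels was 0.269, with an exact 95% interval from counting alone of 0.0770 to 0.768, and it did not pass (adjusted p = 0.0613, edgeR).

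These directions depend on the scaling for part of the list. With library size in place of TMM, a size set mostly by ribosomal RNA, the median of all genes after METTL3 knockdown moved from -0.034 to 0.58, and on that scale MYLK (0.071), TPM1 (0.27) and TPM2 (0.11) turned positive without passing, MYL9 (-0.39, adjusted p = 0.0975) and MYOCD (-0.75, adjusted p = 0.258) no longer passed, ACTA2 passed as higher (0.82, adjusted p = 0.00139), and 3 members were lower, where 41.1% of all genes were higher and 2.75% lower. Gene length moved with the same comparison: the median log2 fold change was -0.27 in the 4282 shortest genes tested, up to 18.7 kb, and 0.22 in the 4281 longest, from 58.6 kb. TAGLN (8.17 kb), MYL9 (8.34 kb) and TPM2 (8.06 kb) are among the short genes, and LMOD1 (50.1 kb) and ACTG2 (26.7 kb) are not. With an offset for length, chosen after the data were seen, 6 members were called lower, where 10% of all genes were lower and 9.48% higher, TPM2 being lost (-0.25, adjusted p = 0.167).

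After METTL14 knockdown the light chain kinase MYLK, the tropomyosin TPM1 and the leiomodin LMOD1 were called lower in every fit that could test them. Of the 10 members 5 were called lower and 0 higher relative to senescent shControl cells, where 12% of all genes tested were called lower and 9.15% higher. The 5 were MYLK, TPM1, LMOD1, ACTG2 and MYOCD, and the median of the members was -0.80 on the log2 scale, with that of all genes at -6.39e-05. Both shMETTL14 libraries lay below both shControl libraries for 8 of the 10, as for 32.1% of all genes tested. Over the 7 members that reach the filter in both groups, 3 were called lower. TPM1 was no longer called where a log2 fold change of at least 1 in size was also required.

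MYLK went from 1191 and 1578 counts with shControl to 581 and 647 with shMETTL14 (log2 fold change -1.33, SE 0.15, adjusted p = 1.35e-07, edgeR). TPM1 had 400 and 411 against 242 and 251 (log2 fold change -0.88, SE 0.15, adjusted p = 8.64e-05, edgeR). Neither gene's groups overlapped, and MYLK was left at 16.3% and TPM1 at 39.1% of the control level. LMOD1 fell from 22 and 37 counts to 3 and 3. The ratio of its normalized levels was 0.0910 (exact 95% interval from counting alone 0.0321 to 0.210), with a fitted log2 fold change of -3.40 (SE 0.55, adjusted p = 3.41e-05, edgeR).

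ACTG2 had 54 and 33 counts with shMETTL14 against 50 and 79, a log2 fold change of -0.73 (SE 0.25, adjusted p = 0.0369, edgeR). The groups did not overlap after normalization, but the call was lost without senescent shControl replicate 2 (-0.41, adjusted p = 0.464) and without shMETTL14 replicate 2 (-0.45, adjusted p = 0.329), with library size alone (-0.37, adjusted p = 0.306) and with DESeq2 (-0.73, adjusted p = 0.139). MYOCD had 5 and 4 counts (log2 fold change -1.82, SE 0.54, adjusted p = 0.0151, edgeR) and lost its call without any 1 of the 4 libraries compared (adjusted p from 0.0703 to 0.0965).

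The other 5 members did not pass. TAGLN had 174 and 127 counts with shMETTL14 against 79 and 140 with shControl, a log2 fold change of 0.30 (SE 0.19, adjusted p = 0.295, edgeR) with overlapping groups. MYL9 had 291 and 237 against 244 and 310, also overlapping, with a log2 fold change of -0.23 (SE 0.15, adjusted p = 0.295, edgeR). On the scale of library size alone, where the median of all genes moved to 0.35, TAGLN passed as higher (0.65, adjusted p = 0.0184), and MYL9 (0.12) and TPM2 (0.019) were positive without passing. ACTA2 had 90 and 82 counts (log2 fold change -0.47, SE 0.19, adjusted p = 0.0828, edgeR), TPM2 had 610 and 571 (-0.33, SE 0.13, adjusted p = 0.0756, edgeR) and CNN1 had 4 and 4 (-1.13, SE 0.66, adjusted p = 0.229, edgeR). ACTA2 and TPM2 did pass as lower in the edgeR fit of only the groups compared (adjusted p = 0.043 and 0.0343), and TPM2 with the length offset (-0.43, adjusted p = 0.0109, edgeR).

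Fibroblast markers moved with METTL14 knockdown and less with METTL3 knockdown. With shMETTL14, 8 of the 10 were called lower and 0 higher, at a median log2 fold change of -1.13 and sums of 13843 to 16399 normalized counts. With shMETTL3, 2 were lower and 2 higher, at a median of -0.033 and sums of 24544 to 28740. Markers of other cell types moved too. The 1 striated muscle marker tested was called higher with shMETTL3 (1.11) and with shMETTL14 (1.23), with list sums of 84.6 to 93.4 in shControl, 184 to 188 in shMETTL3 and 185 to 221 in shMETTL14 libraries. The 1 endothelial marker tested was called lower with shMETTL14 (-1.28), with sums of at most 30.5, and the 1 immune marker tested lower with shMETTL3 (-0.84). Of 6 smooth muscle markers tested, the members ACTG2, LMOD1 and MYOCD were lower with either knockdown, and of the others SMTN was lower (-0.86) and PLN higher (1.96) with shMETTL3. Of 3 epithelial markers tested 0 passed with either knockdown against shControl. The part of these markers in the changes of the contractile genes was not tested.

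The knockdowns share the senescent shControl libraries, so the difference between them was tested directly between shMETTL14 and shMETTL3 cells. Members were called in both directions: 3 were higher with shMETTL14 and 3 were lower, where 16.5% of all genes tested were called higher and 18.7% lower. All genes were thus called both ways too, and the counts alone do not set this list apart. TAGLN, ACTG2 and MYL9 were higher with shMETTL14, and ACTA2, MYLK and TPM1 were lower. These 6 all reach the filter in both groups. The libraries did not overlap for 5 members that were higher and 4 that were lower, as for 33.5% and 32.8% of all genes tested. The members' median difference was -0.089 on the log2 scale, next to 0.012 for all genes. In the same comparison 6 of the 10 fibroblast markers were lower and 1 higher (median -0.93), all 3 epithelial markers tested were higher (median 1.63), and the endothelial marker tested was lower (-1.52). Their part in the difference was not tested.

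TAGLN differed most, with 174 and 127 counts with shMETTL14 and 31 and 30 with shMETTL3, a log2 difference of 2.35 (SE 0.24, adjusted p = 2.62e-08, edgeR). For ACTG2, at 54 and 33 against 20 and 17 counts, the difference was 1.28 (SE 0.31, adjusted p = 0.00211, edgeR), and it did not pass without shMETTL14 replicate 1 (0.90, adjusted p = 0.102). MYL9, at 291 and 237 against 165 and 157, differed by 0.77 (SE 0.16, adjusted p = 3.74e-04, edgeR). In all 3 genes the groups did not overlap.

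In the opposite direction, MYLK differed by -0.79 (SE 0.14, adjusted p = 1.17e-04, edgeR), with 581 and 647 against 1077 and 1132 counts. ACTA2 differed by -0.67 (SE 0.18, adjusted p = 0.00568, edgeR), with 90 and 82 against 131 and 154 counts, so that the 2 smooth-muscle actins differed in opposite directions between the knockdowns. TPM1 differed by -0.52 (SE 0.15, adjusted p = 0.00763, edgeR), with 242 and 251 against 305 and 436 counts, and did not pass without shMETTL3 replicate 2 (-0.29, adjusted p = 0.181) or without shMETTL14 replicate 1 (-0.48, adjusted p = 0.0661). Gene length moved here as well, with a median difference of 0.37 in the shortest and -0.29 in the longest genes tested. With the length offset 3 members were higher and 3 lower, where 15.2% of all genes were higher and 16.4% lower, and the differences of MYLK (-0.39, adjusted p = 0.0284) and MYL9 (0.42, adjusted p = 0.0253) were smaller.

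For CNN1, LMOD1, MYOCD and TPM2 no difference between the knockdowns passed. CNN1 had 8 summed counts with shMETTL14 and 5 with shMETTL3, a ratio of 1.66 (exact 95% interval from counting alone 0.480 to 6.46), and LMOD1 had 6 and 8, a ratio of 0.780 (0.223 to 2.56), so these depths could not show a moderate difference. The log2 difference was -0.46 for MYOCD (SE 0.64, adjusted p = 0.595, edgeR) and 0.17 for TPM2 (SE 0.13, adjusted p = 0.357, edgeR).

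**Figure D3:**
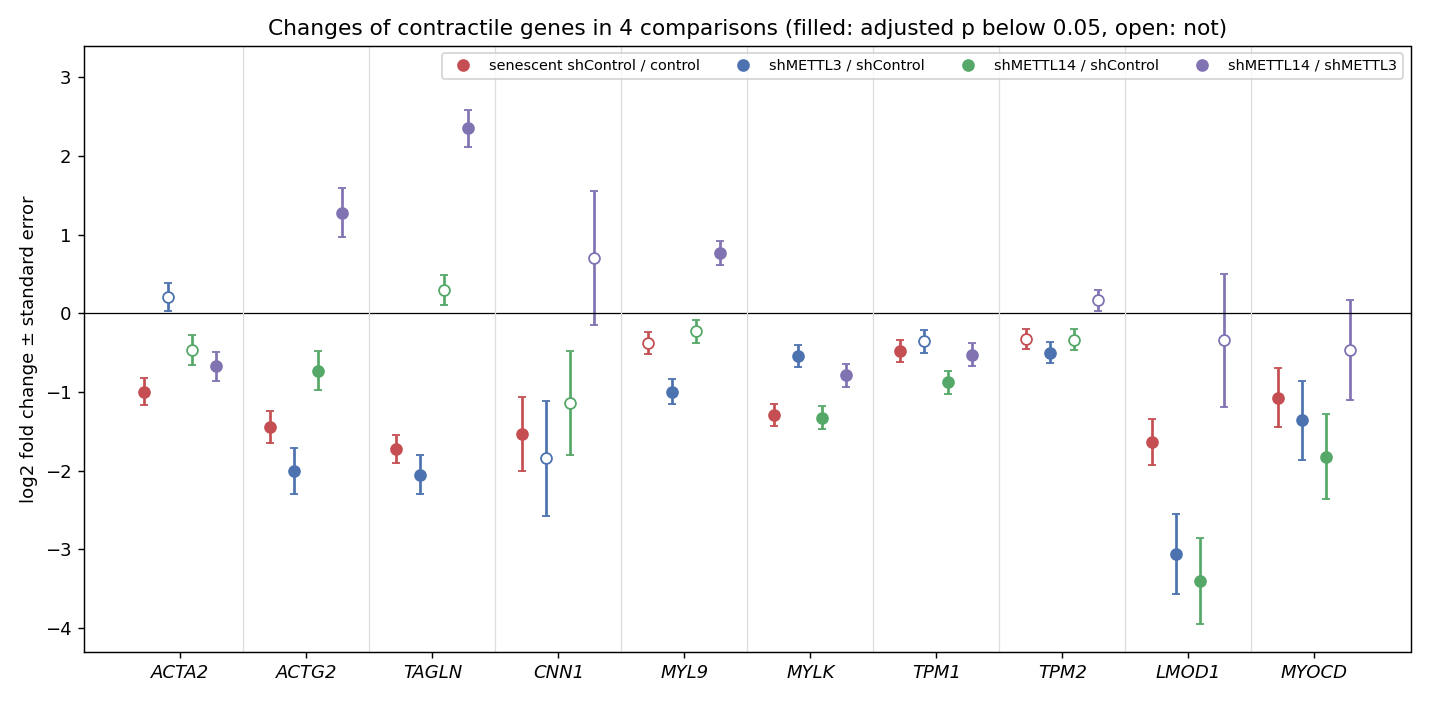
Log2 fold change of each gene (bars, standard error of the edgeR fit) in 4 comparisons, filled where the adjusted p was below 0.05 and open where it was not. TAGLN, ACTG2 and MYL9 lie above 0 and ACTA2, MYLK and TPM1 below 0 in the shMETTL14 to shMETTL3 comparison, and no filled point of the other 3 comparisons lies above 0.

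Against control cells, all 10 members were called lower in both knockdown groups, where 20.1% of all genes tested were lower and 20.1% higher with shMETTL3, and 20.5% lower and 19.7% higher with shMETTL14. Both libraries lay below both control libraries for 10 members in each, as for 35.4% and 36.5% of all genes tested. Over the 7 members that reach the filter in both groups, 7 were lower in each comparison. The calls were kept at the same threshold in every fit that could test the gene, CNN1, LMOD1 and MYOCD not being tested where at least 10 counts in every library were asked for, and 7 were made with shMETTL3 and 8 with shMETTL14 where a log2 fold change of at least 1 in size was also required. Both comparisons use the same control libraries. With shMETTL3 the log2 fold changes ran from -0.79 for ACTA2 to -4.69 for LMOD1, with a median of -2.13, and TAGLN (-3.78) and ACTG2 (-3.46) lay near the low end. The value of LMOD1 was -3.96 without shMETTL3 replicate 1 and -6.52 without replicate 2. With shMETTL14 they ran from -0.61 for MYL9 to -5.04 for LMOD1, with a median of -1.82, and MYOCD (-2.90), CNN1 (-2.67) and MYLK (-2.62) followed LMOD1. Of the 10 fibroblast markers 7 were lower and 2 higher with shMETTL3 (median -1.30) and 8 lower and 1 higher with shMETTL14 (median -2.06) against control, and of 3 epithelial markers tested 1 was lower with shMETTL3 and 2 were higher with shMETTL14. Their part in these changes was not tested. CNN1 with shMETTL3 had 5 summed counts against 61 in control cells, a level 10.9-fold lower (exact 95% interval from counting alone 4.41 to 34.6), and LMOD1 with shMETTL14 had 6 against 239, 34.1-fold lower (15.4 to 93.9).

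The order of the groups was therefore not the same for each gene. ACTG2, TAGLN, CNN1, MYL9 and TPM2 had their lowest mean with shMETTL3, and ACTA2, MYLK, TPM1, LMOD1 and MYOCD with shMETTL14. The lowest 2 groups did not differ by the test for CNN1, TPM2, LMOD1 and MYOCD, and the shControl and shMETTL14 groups did not for TAGLN and MYL9. For ACTA2 the shControl level of 122 ± 28.1 normalized counts lay between the 140 ± 8.35 with shMETTL3 and the 88.2 ± 2.55 with shMETTL14, and neither knockdown differed from it by the test.

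Part of the reads of 6 members can belong to a gene on the other strand. The library kit marks strand, but the counts did not separate the strands: for 84 genes that reach 100 counts in a library and lie inside a gene of the other strand, the enclosing gene was never below the enclosed one in 83 cases. ACTG2, CNN1, TPM2 and LMOD1 overlap no other counted gene, so their falls do not carry this uncertainty. MYL9 lies wholly inside DLGAP4-AS1, an antisense RNA gene with 603 and 561 counts in control cells and 241 and 231 with shMETTL3. Reads inside the MYL9 span thus cannot be assigned to 1 of these 2 genes. That span is 12.7% of DLGAP4-AS1, and MYL9 had 502 and 436 counts in control cells and 165 and 157 with shMETTL3.

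TAGLN shares 32.1% of its span with LOC100652768 and 29.3% with PCSK7, a protease gene. PCSK7 had 105 and 101 counts in control cells and 72 and 58 with shMETTL3, where TAGLN itself had 31 and 30. ACTA2 shares 8.70% of its span with ACTA2-AS1, an antisense gene whose libraries held 99 and 98 (control), 25 and 40 (shControl), 25 and 28 (shMETTL3) and 17 and 14 (shMETTL14) counts. It shares 1.49% with FAS, the death receptor gene, which had 67 and 74 (control), 60 and 46 (shControl), 91 and 181 (shMETTL3) and 107 and 97 (shMETTL14) counts. The shared spans of MYLK were 6.81% with MYLK-AS1 and 1.02% with MYLK-AS2, and that of TPM1 was 11.5% with TPM1-AS. MYOCD shares 33.3% of its span with LOC101928418 and 8.55% with LOC100128006, which had at most 14 counts each in any library.

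Relatives of the members in the same protein families, such as the cytoplasmic actins and the nonmuscle tropomyosins, were called in both directions in senescence. Of 23 such genes 16 were tested, and 3 were called lower and 3 higher in senescent shControl cells, with a median of -0.012. For these counts and those of the lists that follow, the shares of all genes tested were 13.3% lower and 13.3% higher in senescence, 11.2% lower and 12.2% higher with shMETTL3, and 12% lower and 9.15% higher with shMETTL14. CNN2 (-1.16) and CNN3 (-1.33), the other calponins, fell in the same comparison as CNN1, while the cytoplasmic actins ACTB (-0.10, adjusted p = 0.653, edgeR) and ACTG1 (0.13, adjusted p = 0.551, edgeR) did not pass and the transgelin TAGLN2 rose (0.66). On the scale of library size alone 9 of the 16 were lower and 1 higher in senescence, where 39% of all genes were lower and 5.85% higher. After METTL3 knockdown 9 were lower and 1 higher, among them ACTB (-1.04), ACTG1 (-1.09), TAGLN2 (-1.60), TPM3 (-0.59) and TPM4 (-0.66), whereas on the scale of library size alone 3 were lower and 2 higher (all genes 2.75% and 41.1%), TPM3 being at 0.02 and TPM4 at -0.05. After METTL14 knockdown 6 were lower and 1 higher, and ACTB (0.18, adjusted p = 0.427, edgeR) did not pass. On the scale of library size alone 3 were lower and 3 higher, where 5.53% of all genes were lower and 24.6% higher.

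Among 22 tested regulators of SRF-type transcription, 7 were lower and 1 higher in senescence, 3 lower and 6 higher with shMETTL3, and 4 lower and 5 higher with shMETTL14. With library size alone they were 14 lower and 1 higher, 0 lower and 12 higher, and 1 lower and 7 higher. SRF itself fell with shMETTL3 (-1.41, SE 0.36, adjusted p = 0.00478, edgeR) and did not pass with shMETTL14 (-0.32, adjusted p = 0.523, edgeR). The difference between the knockdowns was 1.09 for SRF (adjusted p = 0.0209, edgeR), and on the scale of library size alone neither that difference (0.84, adjusted p = 0.0614) nor the fall with shMETTL3 (-0.81, adjusted p = 0.0591) passed. MKL1 fell in senescence (-0.46) and rose with shMETTL3 (0.66), both calls being lost with the length offset, and MKL2 passed in neither comparison (-0.37 and 0.02). FOXF1, a transcription factor of lung mesenchyme, fell with shMETTL14 (-1.40).

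Other smooth-muscle and contractile-cell genes moved partly with the members. Of 28 tested, 16 were lower and 2 higher in senescence (median -0.51), 9 lower and 4 higher with shMETTL3 (-0.29), and 8 lower and 4 higher with shMETTL14 (-0.090). On the scale of library size alone 2 were lower and 10 higher with shMETTL3, where 2.75% of all genes were lower and 41.1% higher, and 4 lower and 8 higher with shMETTL14, where 5.53% were lower and 24.6% higher. MRVI1, a partner of the inositol trisphosphate receptor in smooth muscle, fell in all 3 comparisons (-2.28, -3.00 and -2.76) and on that scale too. It had 357 and 306 counts in control, 28 and 77 in shControl, 10 and 5 in shMETTL3 and 3 and 14 in shMETTL14 libraries, and does not reach the filter in either knockdown group. The actin cross-linker FLNA fell in all 3 (-0.64, -1.04 and -0.45), the last not passing on that scale (-0.10), and its paralogue FLNC rose with shMETTL14 (2.09). CALD1, caldesmon, fell in senescence (-0.58) and rose with shMETTL3 (0.40), the rise not passing with the length offset (0.11). MYH11, the smooth-muscle myosin heavy chain, was tested at a mean of 12.6 counts and passed in none of these comparisons.

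Of 28 tested genes of nonmuscle actomyosin and its regulators, 5 were lower and 3 higher in senescence (all genes 13.3% each way), 8 lower and 3 higher with shMETTL3, and 6 lower and 3 higher with shMETTL14. Of 23 focal adhesion genes and targets of YAP, 12 were lower and 4 higher in senescence, 6 lower and 7 higher with shMETTL3, and 4 lower and 7 higher with shMETTL14. With library size alone the first list had 21 lower and 0 higher, 2 lower and 12 higher, and 1 lower and 6 higher, and the second 18 lower and 1 higher, 0 lower and 13 higher, and 4 lower and 9 higher, in the same order of comparisons. Beside the medians of these 5 lists that of the contractile genes was the lowest in each of the 3 comparisons, which is a description and not a test. The order after the knockdowns rests on CNN1, LMOD1 and MYOCD, which do not reach the filter there. Among the 7 other members the middle value with shMETTL3 was that of MYLK (-0.54), not below the median of the family relatives (-0.63). With shMETTL14 it was that of ACTA2 (-0.47), next to -0.44 for the family relatives. The fibroblast markers, not among these lists, had a lower median with shMETTL14 (-1.13) and a similar one in senescence (-1.15).

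**Figure D4:**
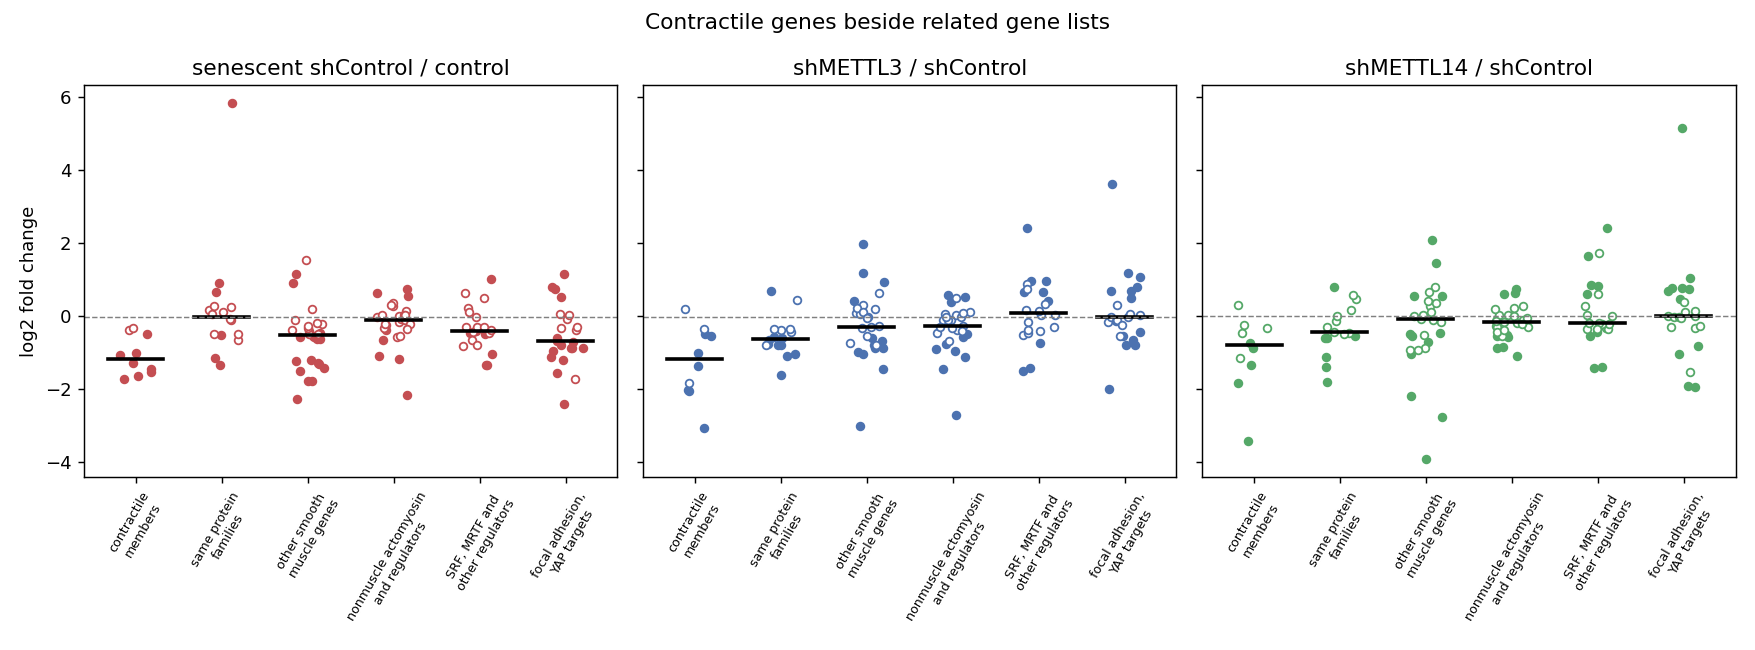
Log2 fold changes of the 10 genes and of 5 related gene lists in 3 comparisons, with 1 point per gene (filled where the adjusted p was below 0.05), a black bar at each list's median and a dashed line at the median of all genes. The bar of the contractile genes lies at -1.18, -1.18 and -0.80, below those of the other lists. It includes CNN1, LMOD1 and MYOCD, which do not reach the filter in the knockdown groups.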

How the data were processed

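Nascent RNA was profiled by fastGRO-seq in 8 libraries, 2 for each of 4 groups taken from the sample labels. The authors aligned the reads to hg19 (the submitters' processing notes name STAR and deepTools 3.3) and deposited raw counts per gene, made with HOMER over whole gene bodies and not normalized, with replicates kept apart. The deposited gene length, in bases, was used for levels per kilobase. Depth was 1513930 to 2048475 counts per library outside ribosomal RNA rows, so genes with few counts carry wide errors, and the counting intervals cover counting error only.

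Differential transcription was tested with edgeR 4.0.16 under R 4.3.3 (TMM, filterByExpr with a minimum count of 10, glmQLFit and glmQLFTest over all 8 libraries, no covariates), with Benjamini-Hochberg adjustment over 12844 genes and a threshold of 0.05. Replicate numbers did not mark shared cultures in the labels, so no block was used. The scripts were tested on simulated data. Alternatives were DESeq2, the tool of the study, here in version 1.42.0, other normalizations, filters and thresholds, only the groups compared, a replicate block, ribosomal RNA rows left out, each library left out in turn and, added after seeing the data, an offset for gene length (lowess span 0.3).

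Ratios of groups with at most 3 counts per library carry exact 95% binomial intervals. Promoter windows came from the RefSeq table of another build and were not joined to hg19 coordinates. The members and lists were chosen with earlier results of these data known. All 10 members are described, METTL3 and METTL14 serve as the check of the labels, and of each related list the text may name, without naming all, the 3 genes highest per length, up to 4 called genes with the largest changes at a mean of at least 50 counts, and any of the family relatives, SRF, MKL1, MKL2, CALD1 and MYH11. Genes that overlap a member are named as overlapping. Some genes of these lists are not reported here by name. Spike-in reads were not used here, and a shift common to every gene would be missed. Plots were drawn with matplotlib 3.10.9.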

Additional observations from a re-analysis of the deposited data

Results flagged for a closer look

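For 6 members the effect of METTL14 knockdown differed from that of METTL3 knockdown in the direct test between the groups (edgeR's quasi-likelihood test, adjusted p below the threshold over all genes). Of all genes tested, 16.5% were called higher and 18.7% lower in this comparison. As log2 difference of shMETTL14 minus shMETTL3, the values were 2.35 for TAGLN, 1.28 for ACTG2 and 0.77 for MYL9, and -0.79 for MYLK, -0.67 for ACTA2 and -0.52 for TPM1. That of ACTG2 was 0.90 without shMETTL14 replicate 1, and that of TPM1 was -0.29 without shMETTL3 replicate 2. The counts of TAGLN, MYL9, MYLK, ACTA2 and TPM1 include reads that may belong to overlapping genes on the other strand, and ACTG2 overlaps no other counted gene.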

How the results depend on the processing

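Member counts under the alternatives are given with the share of all genes tested called the same way. Against control cells the 10 lower members were called with both knockdowns in every fit that could test them, and with a log2 fold change of 1 or more in size also required they were 7 with shMETTL3 (all genes 12.4%) and 8 with shMETTL14 (12.9%). The 8 members lower in senescence were 5 with DESeq2 (7.07%), 5 at an adjusted p below 0.01 (8.14%), and 5 to 10 with 1 library left out (5.59% to 15.9%). The 7 lower with shMETTL3 were 3 with library size alone (2.75%), 4 with a log2 fold change of 1 or more in size also required (5.36%), and 4 to 7 with 1 library left out (5.3% to 15.1%), the lowest without senescent shControl replicate 2. The 5 lower with shMETTL14 were 3 with DESeq2 (7.4%), 3 with at least 10 counts in every library (13.6%), where CNN1, LMOD1 and MYOCD were no longer tested, 3 at an adjusted p below 0.01 (7.36%), 3 with a log2 fold change of 1 or more in size also required (5.84%), and 3 to 7 with 1 library left out (5.76% to 14.3%), the lowest without senescent shControl replicate 2 or shMETTL14 replicate 2. With library size alone 1 member was higher with shMETTL3 (41.1%) and 1 with shMETTL14 (24.6%), in place of 0. The 3 lower with shMETTL14 than with shMETTL3 were 0 with a log2 fold change of 1 or more in size also required (8.54%), and both the 3 higher and the 3 lower were 2 to 3 with 1 library left out (7.31% to 19.8% higher and 10.4% to 19.9% lower).

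Directions turned with library size alone for MYLK (0.071), TPM1 (0.27) and TPM2 (0.11) with shMETTL3, for MYL9 (0.12) and TPM2 (0.019) with shMETTL14, and for TPM2 between the knockdowns (-0.096), where the length offset gave -0.19. With 1 library left out ACTA2 ran from -0.018 to 0.45 with shMETTL3 and TAGLN from -0.017 to 0.72 with shMETTL14, both lowest without senescent shControl replicate 1, and LMOD1 ran from -1.07 to 1.49 between the knockdowns, highest without shMETTL3 replicate 2. None of these turned values passed. The cause was not tested. Library size alone moved the genes called to 752 higher and 5007 lower in senescence and to 5285 higher and 353 lower with shMETTL3.

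Deviations of same-numbered libraries correlated between -0.0389 and 0.101, so the numbers were not taken to pair the samples. With the replicate block MYOCD lost its call with shMETTL3 (-1.36, adjusted p = 0.0534), and no other call of a member changed. Depth limited CNN1, LMOD1 and MYOCD in the knockdown groups, which had at most 7 counts per library there.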

Other observations

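Of 28 tested nonmuscle actomyosin genes and regulators outside the contractile list, 7 were higher and 6 lower with shMETTL14 than with shMETTL3, where 16.5% of all genes tested were higher and 18.7% lower. In that direct comparison the log2 difference was 3.31 for CALM3, 1.5 for RHOC and -0.95 for ROCK1, and each passed (adjusted p = 9.57e-11, 1.33e-07 and 1.22e-05, edgeR). CALM3, a calmodulin gene whose product activates the light chain kinase, fell with shMETTL3 (log2 fold change -2.71, SE 0.25, adjusted p = 7.52e-09, edgeR's quasi-likelihood test) and rose with shMETTL14 (0.60, adjusted p = 0.0162, edgeR), while CALM2, which makes the same protein, passed in neither (-0.03 and -0.20). RHOC, a small GTPase that promotes contraction, rose in senescence (0.73), fell with shMETTL3 (-0.77) and rose with shMETTL14 (0.73), and ROCK1, a kinase that promotes contraction, fell with shMETTL14 (-0.83). DIAPH3, a formin that elongates actin filaments, fell in senescence (-2.14), with shMETTL3 (-1.43, from libraries of 6 and 37 counts against 42 and 58) and with shMETTL14 (-1.10), the last not passing on the scale of library size alone (-0.75). On the scale of library size alone RHOC did not pass in senescence (0.24) or with shMETTL3 (-0.16).

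Of the targets of YAP, a factor that reads cell tension, CTGF fell in senescence (-1.13) and rose with shMETTL14 (0.73), and THBS1 fell in senescence (-0.94) and with shMETTL14 (-1.91). Both kept their direction and their call in those comparisons on the scale of library size alone and with the length offset.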
